A study of Arabidopsis thaliana with 4 samples.

Results

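The most abundant nuclear transcripts of wild-type Arabidopsis thaliana seedlings at 36 h of germination are described from a single RNA-seq sample, without any ratio to another sample. The deposited table holds 23932 features, and 2 value columns for this sample, called column 1 and column 2 below. Every feature with an exon length (23770) was ranked within each column by RPKM (reads per kilobase of exon, scaled to the size of the library), and 189 stood in the top 500 of both columns. Leaving out 2 mitochondrial rows and 6 rows with nuclear codes whose sequence copies ribosomal RNA genes or mitochondrial DNA left 181 nuclear genes, 0.762% of the 23739 nuclear features. A top 500 alone takes 2.1% of the ranked features of a column. These ranks chose the genes, so the levels below are a description and carry no test.

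The study compared ZFP3 overexpressing seedlings (ZFP3ox) with Col-0 wild type, each with and without abscisic acid (ABA), in 1 sample per group. Wild-type control seedlings germinated on medium with 5 µM estradiol and were harvested at 36 h, as were ZFP3ox control seedlings. Wild-type ABA and ZFP3ox ABA seedlings germinated on 5 µM estradiol with 2.5 µM ABA and were harvested at 84 h, times the submitters chose to reach the same radicle stage. All 4 groups thus carried estradiol, and the sources used here name no promoter for the ZFP3 transgene. ZFP3 itself, a zinc finger protein gene, stood at 8.66 RPKM in column 1 and 0.928 RPKM in column 2 of the wild-type control (16 reads). Total RNA of seedlings was depleted of ribosomal RNA with a RiboMinus kit, fragmented and sequenced as 50-base reads on a SOLiD 5500xl instrument, so transcripts without a poly(A) tail could be counted too. In whole seedlings, fewer cells of a type and less RNA per cell cannot be told apart.

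A germinating Arabidopsis seed first lives on stored oil and protein, which the glyoxylate cycle and gluconeogenesis turn into sugar. The seedling then builds ribosomes, expands its cells by taking up water, and greens as nuclear genes for the light-harvesting antenna and the carbon-fixing enzyme Rubisco are switched on by light. Ribosomal protein genes and antenna genes are among the most abundant mRNAs of young green tissue. Many plant genes for ribosomal proteins and translation factors carry the letters TGGGCC or TGGGCT (site II elements) or AAACCCTA (telo box) near their start, and many light-regulated genes carry CACGTG (G-box) or GATAAG (I-box).

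The 250 bases before the annotated start of 4 members are shown because they stand for the translation and photosynthesis groups that the results turn on. AT5G58420 encodes a ribosomal protein of the small subunit, ATL5 a ribosomal protein of the large subunit, AT5G60390 the translation elongation factor that brings aminoacyl-tRNA to the ribosome, and LHCB3 an antenna protein of photosystem II. Capitals mark matches on either strand to the motifs named above, namely TGGGCC or TGGGCT, the telo box, the G-box and the I-box, and on the gene's own strand to TATAAA. The sequences are RefSeq TAIR10.1, written 5′ to 3′ on the strand of the gene.
AT5G58420, chr5:23619209-23619458, plus strand: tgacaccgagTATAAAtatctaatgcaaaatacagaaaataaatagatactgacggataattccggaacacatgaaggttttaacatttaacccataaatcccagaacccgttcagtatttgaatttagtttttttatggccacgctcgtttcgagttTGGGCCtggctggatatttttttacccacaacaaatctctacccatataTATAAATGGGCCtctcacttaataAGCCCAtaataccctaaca
ATL5, chr3:9271466-9271715, minus strand: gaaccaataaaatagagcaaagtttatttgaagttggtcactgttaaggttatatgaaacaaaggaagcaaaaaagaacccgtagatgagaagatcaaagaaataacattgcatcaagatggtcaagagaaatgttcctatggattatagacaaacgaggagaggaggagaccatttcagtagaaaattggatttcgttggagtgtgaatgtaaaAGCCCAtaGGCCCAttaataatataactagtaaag
AT5G60390, chr5:24288346-24288595, plus strand: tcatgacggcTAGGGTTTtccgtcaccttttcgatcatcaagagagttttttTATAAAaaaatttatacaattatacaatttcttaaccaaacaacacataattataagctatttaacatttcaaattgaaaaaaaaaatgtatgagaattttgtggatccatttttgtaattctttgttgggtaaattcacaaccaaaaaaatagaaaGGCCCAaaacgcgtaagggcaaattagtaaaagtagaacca
LHCB3, chr5:22037915-22038164, plus strand: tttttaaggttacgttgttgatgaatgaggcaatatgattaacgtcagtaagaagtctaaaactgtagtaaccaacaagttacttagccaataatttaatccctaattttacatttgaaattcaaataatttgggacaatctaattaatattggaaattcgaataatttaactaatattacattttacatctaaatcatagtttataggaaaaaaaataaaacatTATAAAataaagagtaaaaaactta

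The AT5G58420 window held TGGGCC at 92 and at 37 bases before the start and TGGGCT on the opposite strand at 19 bases before it, and a TATAAA at 43 bases directly abutted the second TGGGCC. Another TATAAA stood at 240 bases. The ATL5 window held TGGGCT and TGGGCC, both on the opposite strand, at 35 and 27 bases before the start. The AT5G60390 window held AAACCCTA on the opposite strand at 240 bases, TATAAA at 198 bases and TGGGCC on the opposite strand at 41 bases. The LHCB3 window held TATAAA at 25 bases and no match to the other motifs. The windows of CAB1 and ICL, the best-ranked photosynthesis and central carbon members, were also searched. They held no match to any of these motifs and are not printed. No marked matches overlapped. A match is a description of letters and not a binding site, and a window can reach into a neighbouring gene.

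TGGGCC or TGGGCT, on either strand, stood in the windows of 14 of the 23 ribosomal protein members (60.9%), against 56.6% of all 355 measured ribosomal protein genes and 19.98% of all 23738 windows. All 181 members together held them in 30.9% of windows. Of the 17 photosynthesis members, 3 held them. AAACCCTA stood in 4 of the 23 ribosomal protein members (17.4%), in 16.9% of all measured ribosomal protein genes and in 4.44% of all windows. GATAAG stood in 6 of the 17 photosynthesis members (35.3%), in 21.95% of the 123 measured photosynthesis genes and in 12.3% of all windows. CACGTG stood in 3 of the 17 (17.6%), in 16.3% of the 123 and in 6.76% of all windows. The share of ribosomal protein members with the first 2 motifs was thus near that of their whole gene class.

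The columns did not hold the same unit, and this sets how they can be read. In column 1 the median level rose with exon length from 5.09 RPKM for features under 500 bases to 13.4 RPKM for those of 4000 bases or more. In column 2 as deposited it rose from 0.57 to 13.71, and all 3900 low values were whole multiples of a single step whatever the length of the gene, as for RPM (reads scaled to the library size but not to gene length). Division of column 2 by exon length gave medians of 1.48 and 2.88 RPKM at those lengths, and every column 2 level in this text is after that division. The step put 1 read at 0.0711 RPM, and so the library at 14.1 M (mega) reads, of which 3.45 M (24.5%) lay in the listed features. Column 1 came from about 4.10 M reads, an estimate from low values of which 68% lay within 0.1 of whole reads, where 20% would with no steps. The same estimate put 4.68 M reads in the listed features, more than that total, so the depth of column 1 is not settled.

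**Figure D1:**
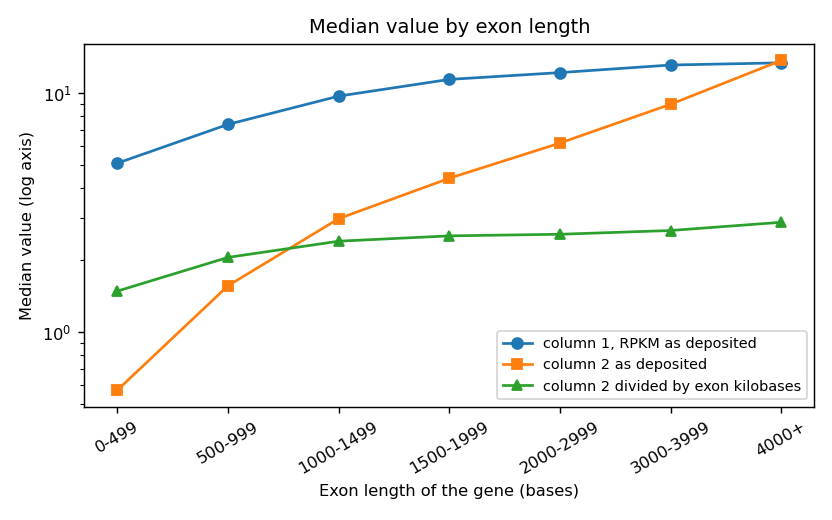
Median value of the wild-type control (log axis) in 7 classes of exon length for column 1, column 2 as deposited and column 2 divided by exon length. The deposited column 2 climbs from 0.57 to 13.71 across the classes, while the divided values stay between 1.48 and 2.88 RPKM.

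The sources used here do not say whether the columns are 2 libraries or 2 runs of 1 library, so they were counted as 1 sample and no error over seedlings can be had. Both values are therefore given for each gene, and the gap between them is the only repeat. Across 23739 nuclear features, Pearson's r of log2(RPKM + 1) between the columns was 0.61 and Spearman's rho 0.570, and within the 181 members rho was 0.202; genes are not independent replicates. Outside the members, 307 nuclear genes were in the top 500 of column 1 only and 310 in that of column 2 only. Members' levels ran from 157 to 17547 RPKM in column 1 (median 373) and from 19.8 to 3072.15 RPKM in column 2 (median 39.4). They made up 23.1% of all RPKM in column 1 and 13.0% in column 2. These shares include 11 members that match ribosomal DNA or a small RNA gene. Among them is AT2G16586, which holds the column 1 maximum and matches ribosomal DNA. In column 2 the members rested on 170 to 75096 reads, with a median of 969.

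**Figure D2:**
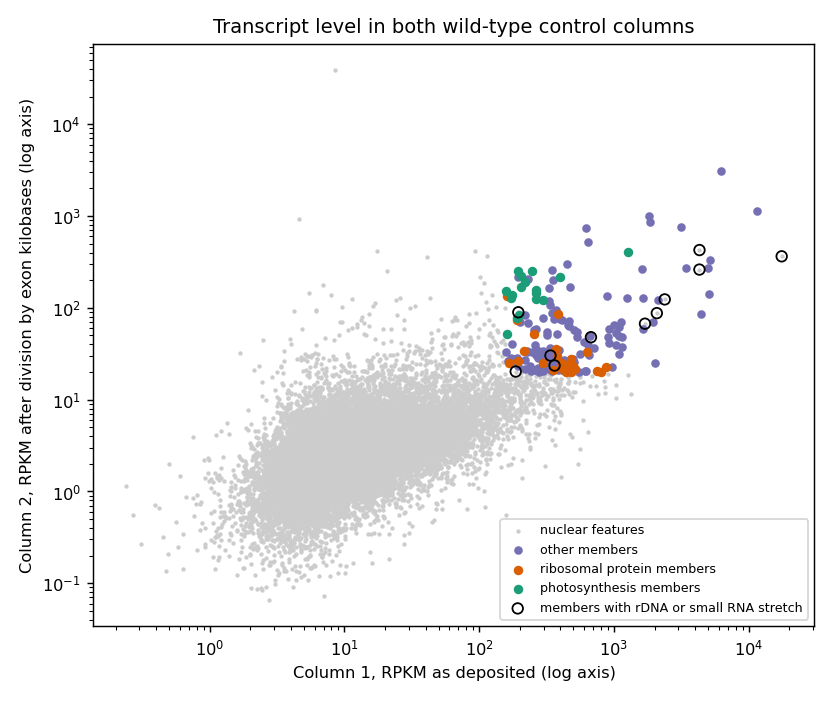
RPKM of each nuclear feature (grey points) in column 1 against column 2 of the wild-type control, both on log axes, with members coloured by group and open circles on the 11 members that match ribosomal DNA or a small RNA gene. The 181 members fill the upper right corner, where photosynthesis members lie between 51.4 and 403 RPKM on the column 2 axis and ribosomal protein members between 19.8 and 136 RPKM.

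The members fell into a few large groups by the function in their product names. Ribosomal proteins gave 23 members, photosynthesis 17, signalling and nucleic acid binding 17, central carbon metabolism 10, water and ion transport 8, translation factors 7 and the cytoskeleton 6. The methionine cycle, protein folding, and the ubiquitin and protease group gave 5 members each. ER body and glucosinolate genes and redox enzymes gave 4 each and cell wall proteins 3. Lipid transfer and seed proteins gave 2, and respiration and carriers 1, the ADP/ATP carrier gene AAC1. No histone or chromatin gene of 134 measured was a member, and 64 members had a name that matched none of these groups. The groups follow names alone, so some of the 64 are related to them by function. Examples are EMB1080, with the GO terms translation and cytosolic small ribosomal subunit, and AT3G56680, with an R3H nucleic acid binding domain. Set against the 0.762% of all nuclear features that were members, the share was 13.7% of 124 measured photosynthesis genes, 6.48% of 355 ribosomal protein genes and 38.5% of 13 methionine cycle genes. In contrast it was 0.594% of 2862 signalling and nucleic acid binding genes, 0.608% of 823 ubiquitin and protease genes and 0.48% of 625 cell wall genes. Lipid transfer and seed protein genes (0.847% of 236) and respiration and carrier genes (0.813% of 123) were near the share of all features. So were histone or chromatin genes (0 of 134). ER body and glucosinolate genes gave 7.41% of 54, central carbon 4.41% of 227, cytoskeleton 4.11% of 146 and translation factors 3.29% of 213. Water and ion transport gave 1.63% of 491, folding 1.49% of 336 and redox 1.37% of 293.

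**Figure D3:**
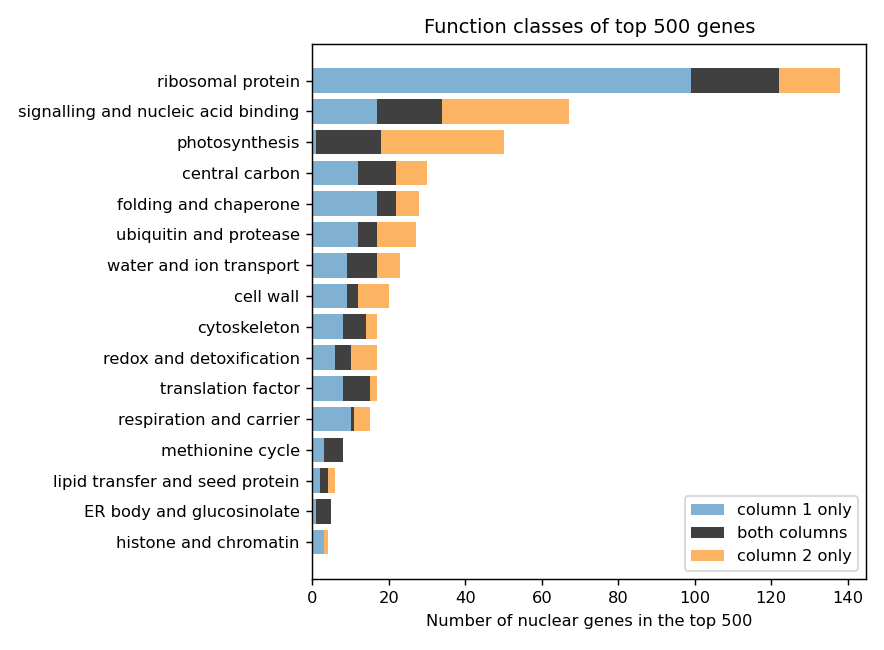
Number of nuclear genes of each function group in the top 500 of column 1, of column 2 and of both. Ribosomal protein genes number 122 in column 1 and 39 in column 2, and photosynthesis genes 18 and 49.

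Photosynthesis members were led by the photosystem II antenna. CAB1 (chr1:10477885-10479114, plus strand), which encodes the major chlorophyll-binding antenna protein, stood at 1267 RPKM in column 1 and 403 RPKM in column 2, ranks 25 and 15. Its neighbours CAB2 and CAB3, which encode the same kind of protein, stood at 263 and 125 RPKM and at 219 and 189 RPKM. CAB1 was the only photosynthesis gene in the top 100 of both columns. LHCB3, whose upstream bases are shown above, stood at 400.4 RPKM in column 1 and 218 RPKM in column 2. The related antenna genes LHCB2.1 and LHCB2.2 stood at 205 and 157 RPKM in column 1 and at 168 and 152 RPKM in column 2. Of the 50-base stretches of CAB1, CAB2 and CAB3, 17.0%, 20.5% and 10.6% also occur in another gene. For LHCB2.1 and LHCB2.2 the shares are 23.5% and 29.5%, so the split of reads within the family is uncertain.

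The minor antenna genes LHCB5, LHCB6 and LHCB4.1, whose proteins link the outer antenna to the photosystem II core, stood at 265, 174 and 172 RPKM in column 1 and at 144, 139 and 129 RPKM in column 2. PSBO1 and PSBP-1, subunits of the oxygen-evolving complex, stood at 262 and 298 RPKM in column 1 and at 157 and 122 RPKM in column 2. The members thus included transcripts for the antenna, for oxygen evolution and for later steps, while complexes and their activity were not tested. For electron transport, DRT112, a plastocyanin, stood at 199 and 83.1 RPKM in columns 1 and 2. PETC, the Rieske protein of the cytochrome b6f complex, stood at 162 and 51.4 RPKM. For photosystem I, the subunit gene PSAH2 was a member at 192 and 78.4 RPKM. The subunit genes PSAF, PSAK and PSAG were not members. They stood at ranks 1323, 2253 and 2316 in column 1 and 147, 146 and 241 in column 2. For carbon fixation, the Rubisco small subunit genes RBCS1A and RBCS3B stood at 203 and 193 RPKM in column 1 and at 222 and 251 RPKM in column 2, and RCA, the activase that keeps Rubisco working, at 246 and 249 RPKM.

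All 17 photosynthesis members ranked higher in column 2, with a median rank of 361 in column 1 and 43 in column 2. Another 32 photosynthesis genes were in the top 500 of column 2 only and 1 in that of column 1 only. That 1 was PORB, an enzyme of chlorophyll synthesis that needs light, at 847 RPKM in column 1 and 16.1 RPKM in column 2, ranks 48 and 680. Among those of column 2 only were LHB1B2, another major antenna gene, at 115 and 366 RPKM, and LHCA4, of the photosystem I antenna, at 108 and 188 RPKM; PORB and these 2 were chosen after their values were seen.

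Ribosomal protein members covered both subunits of the cytosolic ribosome and also the plastid ribosome. AT5G58420, a protein of the small subunit, had the best worse rank of the class, at 385 RPKM in column 1 and 85.5 RPKM in column 2 (ranks 144 and 85). ATL5, of the large subunit, stood at 373 and 35.6 RPKM, and P40, the small subunit protein SA, at 626 and 33.4 RPKM. PSRP5, specific to the plastid ribosome, stood at 253 and 51.9 RPKM. The range over the 23 members was 161 to 872 RPKM in column 1 and 19.8 to 136 RPKM in column 2, which is narrow beside the range of all members. None was in the top 100 of both columns. The count of 23 fell to 8 with both columns ranked as deposited and to 5 with RPKM times exon length.

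Of the 23 ribosomal protein members, 16 ranked higher in column 1, a share near that of all members (113 of 181). Outside the list, 99 further ribosomal protein genes were in the top 500 of column 1 only, against 16 in that of column 2 only. More of the class were in the top 500 of column 1 among long and among short genes. Among 38 ribosomal protein genes of 1500 or more exon bases 13 were in the top 500 of column 1 and 3 in that of column 2, and among the 184 of under 1000 bases the counts were 60 and 20. The median of all 355 genes stood at rank 942 in column 1 and rank 2659 in column 2.

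All 7 translation factor members also ranked higher in column 1. AT5G60390, the elongation factor 1-alpha gene shown above, led them at 1939 RPKM in column 1 and 69.3 RPKM in column 2, ranks 17 and 111. Its copies AT1G07920, AT1G07930 and AT1G07940 stood at 497, 468 and 248 RPKM in column 1 and at 27.4, 22.3 and 21.7 RPKM in column 2. Of their 50-base stretches 67.2%, 44.6% and 47.5% also occur in another gene, against 5.97% for AT5G60390, so the order among these 3 copies is uncertain. LOS1, elongation factor 2, which moves the ribosome along the mRNA, stood at 1095 and 31.1 RPKM, and FBR12, initiation factor 5A, at 349.5 and 34.97 RPKM. EIF4A1, a helicase that unwinds mRNA for initiation, stood at 362 and 23.5 RPKM, and matches a snoRNA gene over 117 bases.

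Central carbon members were led by ICL (chr3:7652487-7656053, minus strand), the isocitrate lyase of the glyoxylate cycle, at 4453 RPKM in column 1 and 85.5 RPKM in column 2, ranks 8 and 86. Of the 8 measured genes of reserve mobilisation it was the only member. MLS, malate synthase of the same cycle, stood at 1265 and 18.7 RPKM, just below the 500th rank of column 2 (rank 540). PCK1, which starts gluconeogenesis, stood at 518 and 12.2 RPKM, KAT2, a thiolase of fatty acid oxidation, at 757 and 19.6 RPKM, and ACO3, an aconitase, at 298 and 12.5 RPKM. These 4 were thus in the top 500 of column 1 only, at ranks 26, 83, 52 and 226. SDP1, the lipase that starts oil breakdown, and the citrate synthases CSY2 and CSY3 stood between 39.2 and 67.5 RPKM in column 1 and between 10.5 and 11.8 RPKM in column 2, in neither top 500.

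Enzymes of glycolysis and of carbon fixation in the plastid were also in this group. AT5G04120, annotated only as a phosphoglycerate mutase family protein and placed here by that name alone, stood at 464 and 63.8 RPKM. GAPC1 and GAPC2, the cytosolic glyceraldehyde-3-phosphate dehydrogenases, stood at 531 and 668 RPKM in column 1 and at 54.5 and 49.8 RPKM in column 2. The enolase LOS2 was among the last inside the list, at 550.1 and 19.8 RPKM, ranks 76 and 497. The plastid aldolase FBA2, the plastid dehydrogenase GAPA and the transketolase AT3G60750, enzymes of carbon fixation, stood at 228, 202 and 225 RPKM in column 1 and at 68.0, 69.5 and 32.8 RPKM in column 2. These 3 of the 10 central carbon members ranked higher in column 2. The other 7 ranked higher in column 1, near the share of all members (113 of 181).

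All 5 methionine cycle members ranked higher in column 1. HOG1, which hydrolyses S-adenosylhomocysteine, stood at 1628 and 59.2 RPKM, and ATMS1, methionine synthase, at 1093 and 62.4 RPKM. MTO3, which makes the methyl donor S-adenosylmethionine, stood at 637 and 39.0 RPKM, and SAMDC, which feeds polyamine synthesis, at 343 and 24.5 RPKM. Of the 13 genes measured in this cycle, 8 were in the top 500 of column 1 and 5 in that of column 2, and those 5 were all members.

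ER bodies are compartments of Brassicaceae cells that hold beta-glucosidases. PYK10, the beta-glucosidase of root ER bodies, stood at 1638 and 128 RPKM, ranks 21 and 56, and PBP1, a protein that binds it, at 1000.3 and 65.3 RPKM. NSP1, which steers glucosinolate breakdown to nitriles, stood at 346 and 25.8 RPKM, and NIT1, a nitrilase, at 298 and 20.5 RPKM. Among folding genes, AT3G11450, with DnaJ and Myb-like domains, stood at 2136 and 123 RPKM, and HSC70-1, a cytosolic chaperone, at 1029.6 and 53.1 RPKM.

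CPN60A and CPN20, of the chaperonin that folds Rubisco in the plastid, stood at 353 and 502 RPKM in column 1 and at 27.3 and 25.8 RPKM in column 2. In column 1 the transport members were led by AVP1, a proton-pumping pyrophosphatase of the vacuole, at 559 and 31.6 RPKM, and HA2, the plasma membrane proton pump, at 380 and 22.0 RPKM. In column 2 the 4 water channels were the highest of the 8 transport members. PIP1B and PIP2A, of the plasma membrane, stood at 346 and 217 RPKM in column 1 and at 88.3 and 82.9 RPKM in column 2, PIP3 at 295 and 78.4 RPKM, and TIP2, of the vacuole membrane, at 329 and 164 RPKM. SWEET12, a sucrose exporter, stood at 296 and 33.6 RPKM. Of 13 aquaporin genes measured, these 4 were members and 8 were in the top 500 of column 2. TIP3;1 and TIP3;2, the vacuole channels of the dry seed, stood at 10.6 and 6.66 RPKM in column 1 and at 3.26 and 3.57 RPKM in column 2, in neither list.

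The 6 cytoskeleton members were the actins ACT2, ACT7 and ACT8 and the alpha-tubulins TUA2, TUA4 and TUA6, which form the filaments and microtubules of growing cells. They stood between 274 and 456 RPKM in column 1 and between 20.5 and 36.8 RPKM in column 2, all ranking higher in column 1. GRP3S, a glycine-rich cell wall protein, stood at 2021 RPKM in column 1 and 25.3 RPKM in column 2, ranks 16 and 347, and AT4G29020 and GRP23, also glycine-rich, at 357 and 195 RPKM in column 1 and at 75.4 and 23.0 RPKM in column 2. The lipid transfer proteins LTP2 and LP1, which carry lipids outside the cell, stood at 898 and 258 RPKM in column 1 and at 47.9 and 39.4 RPKM in column 2. Of the 12 genes often used as references in quantitative PCR, 7 were members, and PP2AA3, UBC9, UBC21, TIP41L and ROC1 were in neither top 500.

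Signalling and nucleic acid binding members included AT3G17680, annotated as a kinase interacting protein, at 1807 and 991 RPKM, ranks 19 and 6. PRIN2, a plastid protein needed for transcription by the plastid RNA polymerase, stood at 471 and 169 RPKM, and MYB4, a repressor of phenylpropanoid genes, at 1119 and 69.9 RPKM. ATAB2, a protein for translation of photosystem mRNAs in the plastid, stood at 448 and 298 RPKM. With PRIN2 and ATAB2, regulators of plastid gene expression were thus among these members. Among redox enzymes, THM1, a plastid thioredoxin, stood at 272 and 28.7 RPKM, TRX3, a cytosolic thioredoxin, at 348 and 20.4 RPKM, and the catalases CAT2 and CAT3, which break down hydrogen peroxide, at 217 and 157 RPKM in column 1 and at 27.2 and 33.4 RPKM in column 2. UBQ10, a polyubiquitin gene, stood at 325 and 30.9 RPKM, UBQ1, which joins ubiquitin to a ribosomal protein, at 377 and 29.3 RPKM, and UBC29, a ubiquitin-conjugating enzyme, at 194 and 218 RPKM.

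By name, the very top of the list was mostly outside these groups. Of the 20 members with the best worse rank, 15 matched none of the groups by name, and 6 are annotated only as uncharacterized proteins. In 4 of the 20, a stretch of 50 or more bases, at 96% identity or above, matches a snoRNA gene or ribosomal DNA. Over all members 11 contained such a match, also counting snRNA genes (6.08%), against 53 of 23739 nuclear features (0.223%). The search behind both counts also took in tRNA genes and organelle DNA, which none of the 11 matched. The 11 divide into 6 with a snoRNA match, 3 with an snRNA match and 2 with a ribosomal DNA match. The share of these levels that comes from the small RNA or the ribosomal RNA was not tested. As examples, a stretch of AT2G35750 that matches the snoRNA gene AT2G35747 over 80 bases and the stretch of LAF3 that matches an snRNA gene over 93 bases, both at 100% identity, are shown from RefSeq TAIR10.1 on the strand of the gene. The longest snoRNA match of AT2G35750 was 226 bases.
AT2G35750, chr2:15029832-15029911, minus strand: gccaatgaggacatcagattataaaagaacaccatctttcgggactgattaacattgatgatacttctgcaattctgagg
LAF3, chr3:20725797-20725889, minus strand: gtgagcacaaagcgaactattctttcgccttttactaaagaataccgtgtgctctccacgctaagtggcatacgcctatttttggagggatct

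AT2G35750, an uncharacterized gene that has a snoRNA gene within its exon on the same strand, stood at 4303 RPKM in column 1 and 261 RPKM in column 2, ranks 10 and 25. LAF3, an amidohydrolase family gene known for far-red light signalling, stood at 1697 and 67.2 RPKM. AT2G16586, uncharacterized and matching ribosomal DNA over 608 bases at 98.8% identity, stood at 17547 RPKM in column 1, rank 2, and 364 RPKM in column 2, rank 17. AT2G01008, matching ribosomal DNA over 468 bases and with a microRNA gene in its exon on the same strand, stood at 2379 and 124 RPKM. AT1G29465, with a snoRNA gene in its exon, stood at 4307 and 426 RPKM. The other 16 of the top 20 held no such match.

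SYP132 (chr5:2588160-2591406, plus strand), a syntaxin that fuses vesicles with the plasma membrane, stood at 6171 RPKM in column 1 and 3072.15 RPKM in column 2, ranks 4 and 3, on 75096 reads in column 2. AT2G31141, uncharacterized, stood at 11455 and 1141 RPKM, and AT1G66210, a subtilisin-like protease gene, at 3153 and 763 RPKM. FZR3, an activator of the anaphase-promoting complex, stood at 1852 and 870.5 RPKM, and MIS12, a kinetochore protein, at 3417 and 273 RPKM. Both of the latter act in cell division. AT5G53220 and AT3G63052, uncharacterized, stood at 5113 and 5089.7 RPKM in column 1 and at 334 and 143 RPKM in column 2.

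AT3G58670, annotated as a putative dioxygenase, stood at 4951 and 269 RPKM. AT3G59150, an F-box family gene, stood at 1602 and 266 RPKM, and AT3G56680, a gene with an R3H nucleic acid binding domain, at 643 and 519 RPKM. AT3G23460, a methyltransferase family gene, and AT1G49700, of unknown function, stood at 895 and 1245 RPKM in column 1 and at 136 and 128 RPKM in column 2. None of SYP132, FZR3, MIS12, AT2G31141, AT5G53220 and AT3G63052 held a same-strand match to a snoRNA, snRNA or tRNA gene or ribosomal DNA. Other kinds of small RNA gene, such as microRNA genes, were not searched for matches. Over all members, 35 (19.3%) shared at least a 50-base run with another gene, against 13.3% of all nuclear features. Among them were NSP1, TUA4 and RBCS3B, with 27.5%, 18.8% and 16.5% of their 50-base stretches shared, so their levels are uncertain too.

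Members were slightly shorter than the rest, with a median of 1504 exon bases against 1633 over all nuclear features, and had the same median of 4 exons. Their median GC content was 42.4% against 41.1%. Features under 1000 exon bases made up 19.3% of the members and 19.4% of all nuclear features.

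By the GO biological process terms in the deposited table, 160 of the 181 members had a term. Translation was the most frequent specific term, in 22 members (12.2%, against 1.62% of all nuclear features). Response to cadmium ion followed with 19 members (10.5% against 1.18%) and response to salt stress with 18 (9.94% against 1.32%). Both of these terms were carried by ATMS1, GAPC1, LOS2, NDPK1, AT4G23670 and TPI, a triosephosphate isomerase. The transketolase AT3G60750 and the ribosomal protein gene AT3G09200 also carried both. Response to cold took 11 members (6.08% against 0.923%), with RCA, RBCS1A and HSC70-1 among them. Photosynthesis took 10 (5.52% against 0.278%), all of them antenna genes but for PSAH2. Responses to red, far-red and blue light took 7, 7 and 6 members (3.87%, 3.87% and 3.31%, against 0.173%, 0.143% and 0.131%), which were LHCB5, CAB2, LHCB2.1, RBCS1A, RBCS3B and LHCB4.1, with ACT2 in the first 2. Response to abscisic acid took 5 members (2.76% against 1.15%), SYP132, PIP3, FBA2, PIP2A and LOS2. No enrichment was tested, since the list was chosen by the levels.

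By cellular component, 64 members (35.4%, against 6.42% of nuclear features) carried the term chloroplast, 53 (29.3% against 6.96%) cytosol, and 40 (22.1% against 3.13%) plasmodesma. The apoplast took 25 (13.8% against 1.12%) and the cytosolic ribosome 19 (10.5% against 0.746%). Of the 18 measured genes with the term light-harvesting complex, 8 were members, all among the antenna genes named above.

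The label of the sample was set beside markers of tissues and cell types that seedlings at this stage can hold. All 8 green cotyledon markers were members, at 193 to 1267 RPKM in column 1 and 125 to 403 RPKM in column 2. These 8 are photosynthesis members described above, chosen with earlier results of these data known, so they are no separate check of the label. LHB1B2, RBCS2B and PSBO2, of the same families, were not members, at ranks 728, 914 and 1083 in column 1 and 16, 82 and 183 in column 2. None of 11 measured seed storage and oil body genes was in a top 500. They ranged from 5.32 to 33.8 RPKM in column 1 and from 0.966 to 17.9 RPKM in column 2, where SESA1, a seed albumin gene, was the highest with 177 reads. The 5 endosperm markers had medians of 9.72 and 1.93 RPKM, with XTH19 highest at 98.6 RPKM in column 1. The 6 root hair markers had medians of 15.8 and 2.64 RPKM and the 5 root tip markers 13.7 and 2.30 RPKM, with no member among them.

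The 4 shoot meristem markers, from STM to WUS, had medians of 6.09 and 2.32 RPKM. The 9 flower and pollen markers, which a seedling should lack, had medians of 9.49 and 4.44 RPKM. In column 2 that was above the medians of the seed, endosperm, root and meristem lists. In column 1 it was above the seed and meristem medians but below the endosperm, root hair and root tip medians. The highest flower and pollen gene stood at 18.3 RPKM in column 1, below the highest gene of each of those lists (20.8 to 98.6 RPKM). In column 2 it stood at 8.44 RPKM, and only the seed list held a higher gene. Levels near those of the flower and pollen genes were thus not told from background here. The median of all features listed was 10.45 in column 1. Of 10 genes for cell wall loosening, GASA4, a gibberellin-responsive gene, was the only member, at 258 and 20.8 RPKM. XTH31 stood in the top 500 of column 1 only at 241 RPKM and XTH4 in that of column 2 only at 30.7 RPKM.

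**Figure D4:**
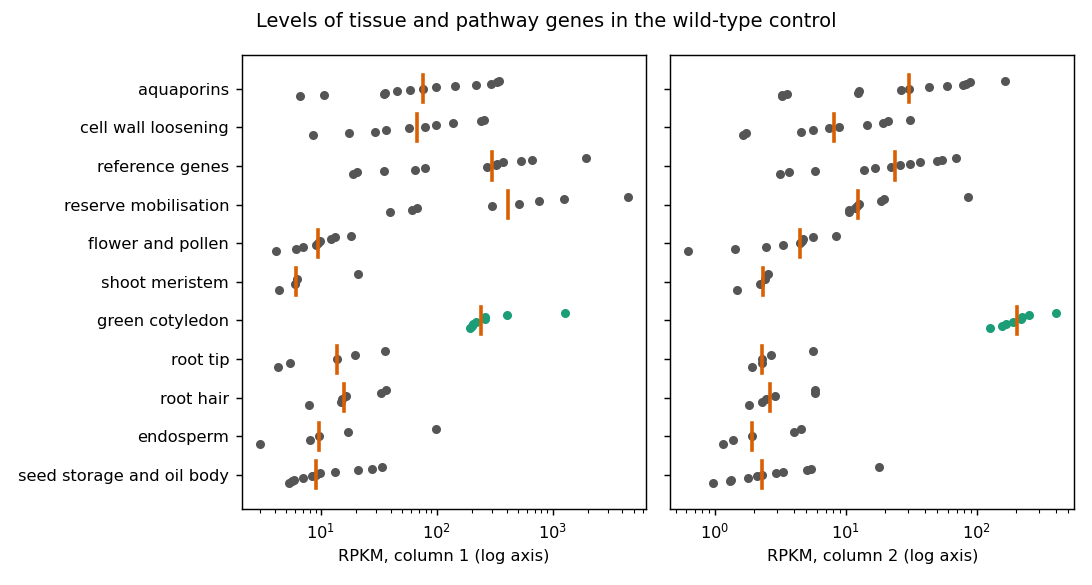
RPKM (log axis) of the genes of each marker and pathway list in column 1 and column 2 of the wild-type control, 1 point per gene, with a vertical bar at the median of each list. The 8 green cotyledon genes (green) lie at 193 RPKM or more in column 1 and 125 RPKM or more in column 2, above every seed, endosperm, root, meristem and flower gene.

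At the threshold of the list, the last members inside were LHCB2.2 (ranks 495 and 43), LOS2 (76 and 497) and AT1G70600, a ribosomal protein gene (116 and 499). The first outside were ROC4, a plastid cyclophilin gene (501 and 194), PGY2, a ribosomal protein gene (85 and 502), and CAD9 of the cinnamyl alcohol dehydrogenase family (234 and 504). In column 2, AT1G70600 stood at 19.8 RPKM on 267 reads and PGY2 at 19.7 RPKM on 277 reads, so membership at this edge turned on a few reads.

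Some genes were high in 1 column and low in the other. In the top 100 of column 1, MRH6 had the lowest rank in column 2, at 538 RPKM in column 1 and 1.99 RPKM in column 2, where it had 25 reads. The ribosomal L41 genes AT3G08520 and AT2G40205 stood at 557 and 644 RPKM in column 1 and at 2.89 and 4.47 RPKM in column 2, and Erv1 and AT4G33760 at 472 and 487 RPKM and at 4.23 and 3.89 RPKM. These 5 genes had 10 to 126 reads in column 2. In the top 100 of column 2, AT2G13542, a defensin-like gene, stood at 4.23 RPKM in column 1 and 93.2 RPKM in column 2. HB53, a homeobox gene, stood at 4.63 and 919 RPKM, ranks 20648 and 7, on 12165 reads. MYB90, an activator of anthocyanin genes, stood at 5.45 and 145 RPKM, IDL5 at 6.12 and 94.96 RPKM and AT1G27570 at 6.13 and 92.2 RPKM. The highest feature differed too: AT3G43990 ranked 1 in column 2, where it took 18.1% of all deposited values, and 14181 in column 1 at 8.55 RPKM. In column 1 it was AT2G01021, a copy of ribosomal DNA that was left out, with 4.60% of the sum.

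The members were then ranked the same way in the other samples, each a single sample with its own 2 columns. They were chosen by rank in the wild-type control, so any other sample could only lose members. More of them were in the list of the ZFP3ox control than in those of both ABA samples. Of the 181 members, 159 (87.8%) were in the top 500 of both columns of the ZFP3ox control, 109 (60.2%) of the wild-type ABA sample and 112 (61.9%) of the ZFP3ox ABA sample. Of all nuclear features, 0.986%, 0.939% and 0.779% were. In all 3 other samples 87 members were in both lists, and 13 members were in that of no other sample. With 1 sample per group there is no test, and ABA and the later harvest at 84 h cannot be told apart.

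Photosynthesis members were absent from the list of wild-type seedlings on ABA. All 17 were in the top 500 of both columns of the ZFP3ox control and 10 of the ZFP3ox ABA sample, and 0 of the wild-type ABA sample. Their median ranks in columns 1 and 2 were 215 and 59 in the ZFP3ox control, 4145 and 4816 in the wild-type ABA sample, and 262 and 320 in the ZFP3ox ABA sample. In the wild-type control, where rank chose them, the medians were 361 and 43. CAB1 stood at ranks 1783 and 1384 in the wild-type ABA sample and at ranks 45 and 34 in the ZFP3ox ABA sample. RBCS1A, at ranks 550 and 115, was the only photosynthesis member to reach the top 500 of a column in the wild-type ABA sample.

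Of the translation factor members, 7 of 7 were in the lists of the ZFP3ox control and the wild-type ABA sample and 5 of 7 in that of the ZFP3ox ABA sample. Their median rank in column 1 was 99 in the wild-type control and 146, 192 and 334 in those 3 samples. In column 2 it was 311 in the wild-type control and 177, 239 and 185, so the columns moved in opposite directions. Ribosomal protein members were in the lists of those samples in 18, 18 and 12 of 23 cases, and signalling and nucleic acid binding members in 17, 13 and 14 of 17. Cytoskeleton members were in them in 4, 1 and 1 of 6 cases, and methionine cycle members in 5, 2 and 2 of 5. ICL kept ranks 18 and 19 in the wild-type ABA sample, 12 and 97 in the ZFP3ox control, and 34 and 48 in the ZFP3ox ABA sample. SYP132 ranked 2 or 3 in both columns of every other sample.

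**Figure D5:**
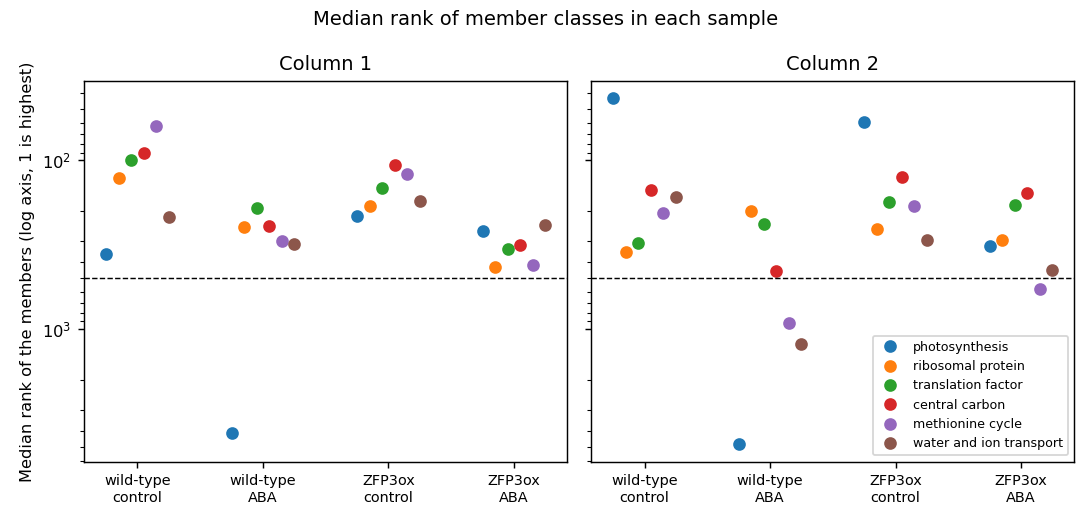
Median rank (log axis, best rank at the top) of the members of 6 function groups in column 1 and column 2 of each of the 4 samples, with a dashed line at rank 500. Photosynthesis members fall to median ranks of 4145 and 4816 in the wild-type ABA sample. Translation factor members stand at 192 and 239 there, against 99 and 311 in the wild-type control.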

How the data were processed

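Values came from 1 deposited table of the series, with 2 columns per sample for 4 samples and 0 further columns of per-sample values. Per the deposited settings, the authors mapped colour-space reads strand-specifically with at most 2 mismatches and 10 places per read, and took RPKM values per gene; the program, its version and the build were not given in the sources used here. Column 1 of each sample was deposited as RPKM. Column 2 was deposited as RPM, reads scaled to the library but not to gene length: its low values were whole multiples of 1 step for every gene, although the settings name RPKM, and the ranking as planned assumed RPKM. It was therefore multiplied by 1000 and divided by the exon length in RefSeq TAIR10.1, which 162 features lacked.

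Features were ranked within each column. Organelle rows, and rows with 90% or more of their 50-base stretches in ribosomal or organelle DNA, were left out after ranking. Function groups came from product names and GO terms from the deposited table. Same-strand matches to snoRNA, snRNA and tRNA genes and ribosomal DNA were found with BLAST 2.17.0, at 50 bases and 96% identity or more. Organelle DNA was searched on either strand. Python 3.11.15 with pandas 2.3.3 and numpy 2.4.6 was used, and ranking, step and depth estimates were tested on simulated data. The 20 members with the best worse rank, the first 4 of each group with at least 3 members, all genes of the marker lists, 3 genes on each side of rank 500 and the 5 most uneven genes of each column's top 100 were named by rule; any others were chosen after their values were seen. Members, groups and lists were chosen with earlier results of these data known. With 1 sample no test was made.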

Additional observations from a re-analysis of the deposited data

How the results depend on the processing

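The list held 181 genes, 23 of them ribosomal protein and 17 photosynthesis genes. Another 2 were of the lipid transfer and seed protein group, called lipid transfer genes in this section. In that order the counts were 77, 3, 3 and 1 for the top 250 of both columns, 409, 81, 31 and 4 for the top 1000, and 489, 101, 43 and 4 for the top 500 by the mean of both ranks. Column 1 alone gave 488 genes with 122 ribosomal protein and 4 lipid transfer genes, and column 2 alone 491 with 39, 49 and 4. With RPKM times exon length, 184 genes were listed, of which 128 were among the 181, with 5 ribosomal protein, 12 photosynthesis and 1 lipid transfer gene. Ranking both columns as deposited, an alternative chosen after seeing the data, gave 165 genes with 8 ribosomal protein and 1 lipid transfer gene, and 143 of the genes were among the 181; photosynthesis stayed at 17. Removing organelle rows first, or a filter on locus codes, length or RPKM, kept every count within 1.5 times. Pearson's r of 0.61 was 0.59 with a pseudocount of 5, 0.56 for features of at least 1 RPKM in both columns, and 0.58 with column 2 as deposited.

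No paired analysis was possible because there is 1 sample and no test. What sets the 2 columns apart is unknown, so the gap between them is no error over seedlings, and ranks say nothing of absolute RNA amounts. The depth of column 1 is not settled, and only 24.5% of column 2's reads lay in listed features.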
